A study of Mus musculus with 6 samples.

Results

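The transcripts described here come from 9 costimulatory and death receptor genes in thymic iNKT1 cells with and without floxed alleles of a TGF-beta receptor gene: Tnfrsf1a, Tnfrsf1b, Tnfrsf4, Tnfrsf9, Tnfrsf18, Tnfrsf25, Cd27, Cd28 and Fas. The genes were taken by symbol from the 17985 genes of the deposited RNA-seq table, and all 9 were found there. The cells were labelled iNKT1, the invariant natural killer T subset that expresses T-bet, and were taken from the thymus of C57BL/6 mice that had no treatment and whose age the labels do not give. The Ctrl group had the genotype Tbx21CreTg;Rosa26-LSL-YFP+/+, and the cKO group carried the same alleles together with Tgfbr2F/F. Both groups thus held the Cre transgene, named for Tbx21, and the YFP reporter, which follows a floxed stop signal. Each group had 3 libraries. The series text calls the replicates independent and does not say whether each came from its own mouse, so the p-values measure the spread between these libraries.

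Except for Cd28, the receptors belong to the tumour necrosis factor receptor superfamily. Its members bind trimeric ligands and signal through TRAF adaptors toward NF-kB, and those with a death domain (TNFR1, Fas and DR3) can also recruit adaptors that lead to caspase activation. Cd28 encodes an immunoglobulin-family receptor that binds CD80 and CD86 and adds the second signal to antigen receptor signalling. In the thymus, signals through several of these receptors are known to support the development of regulatory T cells and of iNKT cells.

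The libraries held between 28832779 and 68092478 reads, so that 1 read was worth 0.0147 to 0.0347 CPM, the read count as a share of all reads of the library on a fixed scale. Tgfbr2 itself was counted over the whole gene, and no single exon was read separately. It was listed at 461.0, 460.7 and 424.9 CPM in the Ctrl libraries and at 289.8, 257.6 and 274.3 CPM in the cKO libraries. The cKO mean was 61.0% of the Ctrl mean (log2 difference -0.71, limma adjusted p = 0.0207). That call was lost under the edgeR quasi-likelihood test, which used whole reads recovered from the CPM (adjusted p = 0.0687), and in 5 of the 6 fits that left out 1 library (the exception was the fit without cKO replicate 3). The authors' likelihood-ratio comparison gave Tgfbr2 a log2 fold change of -0.64 and no mark as changed (adjusted p = 0.373). The replicate 3 libraries stood apart in both groups: 4406 genes were at 0 in Ctrl replicate 3 and 4590 in cKO replicate 3, against 0 to 5 in the other libraries. All 8 iNKT1 markers were present, with summed levels of 7401 to 9461 CPM in Ctrl and 7718 to 10791 CPM in cKO. Il2rb was the largest part of these sums, with means of 2925 CPM in Ctrl and 3705 CPM in cKO. Xcl1 (means of 181.1 and 91.5 CPM), Cd3e and Trac had lower means in cKO, and the other iNKT1 markers did not. Klrb1c varied within Ctrl, at 566.4, 179.9 and 703.3 CPM. Markers of other cells were low: B cell markers summed to at most 11.7 CPM, myeloid markers to 10.2 CPM, markers of NK cells or ILC1 to 11.8 CPM and the epithelial marker Epcam to 9.97 CPM in any library. The 4 double-positive thymocyte markers in the table summed to 7.14 to 9.19 CPM in Ctrl and to 10.2 to 14.9 CPM in cKO. Of the regulatory T cell markers, Foxp3 and Lrrc32 were not found by symbol in the deposited table. Ikzf2, Il2ra and Ctla4 summed to 47.5 to 55.3 CPM in Ctrl and 63.7 to 83.9 CPM in cKO. Most of that gap came from Il2ra, with means of 8.64 CPM in Ctrl and 37.7 CPM in cKO, and Ikzf2 had means of 41.1 and 35.7 CPM. The part of these other cells in the results was not tested.

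Tnfrsf25 was the 1 receptor gene of the 9 that passed an adjusted p of 0.05 as higher in cKO cells, by 2.59-fold. No receptor gene passed as lower. The other 8 had mean cKO levels between 0.925 and 1.26 times those of Ctrl, and none passed an adjusted p of 0.05 in limma, the linear model fitted to log2(CPM + 1). At an unadjusted p under 0.05 there were 3 receptor genes (Tnfrsf25, Cd28 and Tnfrsf1a), against 6.02% of all tested genes, and 6 with the replicate number as a block, against 12.6%. The edgeR quasi-likelihood test called 1 receptor gene and DESeq2 called 2, against 40 and 554 of all tested genes. The fit covered the 15691 genes whose mean over the libraries reached 1 CPM, and all 9 receptor genes passed that filter. Of all tested genes, 0.663% passed in either direction, 32 of them higher in cKO (0.204%) and 72 lower. With the block, Tnfrsf25 was again the only receptor gene called, while 2.87% of all tested genes were called in either direction and 1.24% were called higher. The 9 genes were chosen with earlier results of these data known, so these counts do not test the family against all genes. Bulk RNA of this kind cannot tell a change in the RNA per cell from a change in the share of cells that make it.

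The fitted difference was positive for 7 of the 9 receptor genes and negative for Tnfrsf1b and Tnfrsf4 (that of Tnfrsf4 changed sign in 8 of 16 alternatives, TMM scaling among them), and the median of the 9 was 0.27 on the log2 scale. Over all tested genes the median was -0.038, and 40.95% were higher in cKO, a share that was 48.23% with TMM scaling and 51.61% with DESeq2. In all 3 pairs of libraries with the same replicate number, 7 of the 9 genes were higher in cKO, as were 11.5% of all tested genes. For Tnfrsf25, Cd28, Tnfrsf1a and Fas, every cKO library lay above every Ctrl library, a pattern seen in 3.89% of all tested genes. No receptor gene had all cKO libraries below all Ctrl libraries, which 7.1% of tested genes did. Because the 9 genes were chosen with earlier results known, these shares are no independent comparison with all genes. The plot of each library's level shows the gap between the groups as widest for Tnfrsf25 and narrowest, among these 4, for Fas.

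**Figure D1:**
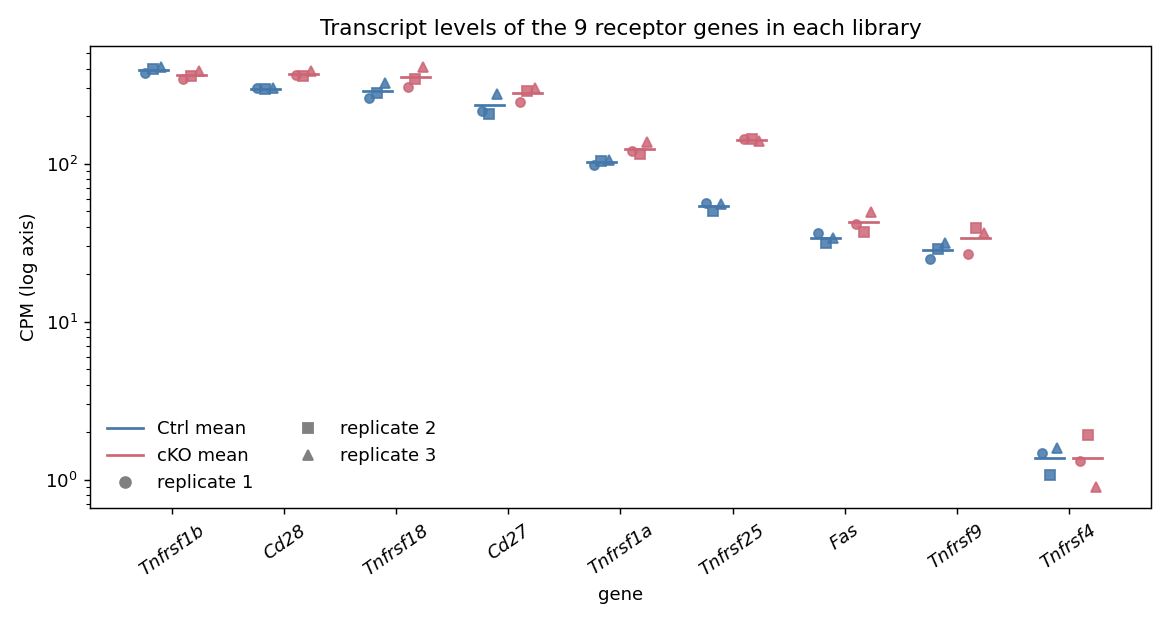
Level of the 9 receptor genes in each library, in CPM on a log axis, ordered by the Ctrl mean. Points are single libraries with a shape for each replicate number, and bars are means of 3 libraries for Ctrl (blue) and cKO (red). The Tnfrsf25 points of cKO, 138.6 to 144.0 CPM, lie well clear of those of Ctrl, 50.2 to 56.9 CPM, and the Tnfrsf4 points lie near 1 CPM in both groups.

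Tnfrsf25 encodes DR3, a death-domain receptor for the ligand TL1A that acts as a costimulator of T cells. The gene (ENSMUSG00000024793) lies on the plus strand at chr4:152115934-152120119 of mm10, as the deposited table gives it. RefSeq places a pair of transcription starts there, 409 bases apart. The sequence around each is shown because this is the receptor gene that was called. Each window runs from 250 bases before to 50 bases after the start on build GRCm38.p6, on the plus strand, at chr4:152115684-152115983 for the first and chr4:152116093-152116392 for the second. Capitals mark CAGAC or its reverse complement GTCTG, the short box that SMAD proteins, the nuclear messengers of TGF-beta receptors, are known to bind.
Tnfrsf25 window 1: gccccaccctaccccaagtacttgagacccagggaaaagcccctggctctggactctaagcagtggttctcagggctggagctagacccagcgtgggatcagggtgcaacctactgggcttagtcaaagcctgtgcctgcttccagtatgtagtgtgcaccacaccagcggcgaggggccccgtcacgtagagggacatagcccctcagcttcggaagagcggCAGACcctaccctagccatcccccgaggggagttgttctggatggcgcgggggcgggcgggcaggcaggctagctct
Tnfrsf25 window 2: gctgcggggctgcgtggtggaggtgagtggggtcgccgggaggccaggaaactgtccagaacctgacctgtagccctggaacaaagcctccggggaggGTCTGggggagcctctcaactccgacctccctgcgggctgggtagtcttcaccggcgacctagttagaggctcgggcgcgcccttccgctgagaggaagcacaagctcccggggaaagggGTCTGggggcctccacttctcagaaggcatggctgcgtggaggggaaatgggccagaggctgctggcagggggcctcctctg
The first window held 1 such box and the second held 2. Boxes of 5 letters are frequent: 49.59% of the 32851 RefSeq promoter windows of this length held at least 1 on either strand. Among the receptor genes, 8 had windows in that table, 10 windows in all, of which 6 held the box. Neither Tnfrsf25 window held the T-box half-site GGTGTGA on either strand, which 3.98% of all windows held, and the KLF box CACCC was found 2 times in the first window and 0 times in the second, against a presence in 57.52% of all windows. These matches describe letters in the sequence and no binding was measured.

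Tnfrsf25 was listed at 56.9, 50.2 and 55.3 CPM in Ctrl replicates 1, 2 and 3 and at 144.0, 143.0 and 138.6 CPM in the cKO replicates. The lowest cKO library was thus far above the highest Ctrl library, and the spread within each group was small, with means of 54.2 ± 3.5 (SD, n = 3) and 141.9 ± 2.9 (SD, n = 3) CPM. At least 1546 reads lay behind each value. The log2 difference was 1.38 with a standard error of 0.0848 (95% interval 1.17 to 1.58), a fold of 2.59 with an interval of 2.25 to 2.98 (limma adjusted p = 0.00215). By library pair the ratio of cKO to Ctrl was 2.53, 2.85 and 2.51, so the replicate 3 pair, which stood apart in the whole table, gave a ratio close to that of pair 1. Among the 32 genes called higher in cKO, Tnfrsf25 ranked 15 by fold. In the authors' deposited table its log2 fold change was 1.46 and it was marked as up.

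Tnfrsf25 was also read against the other receptors of the same library. Relative to the mean log2(CPM + 1) of the other 8 receptor genes it stood at -0.45, -0.62 and -0.64 in the Ctrl libraries and at 0.74, 0.60 and 0.49 in the cKO libraries. The difference of 1.18 was smaller than the 1.38 of Tnfrsf25 alone and larger than the SDs of 0.10 and 0.12. The exact two-sided permutation test gave p = 0.1, the smallest that 3 against 3 libraries allow. Tnfrsf25 was the gene already called from these same values, so this p-value is no separate evidence. Per kb of merged exon, the level of Tnfrsf25 was 25.4, 21.2 and 22.8% of that of Tnfrsf1b in the Ctrl libraries and 70.2, 66.3 and 60.3% in the cKO libraries.

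Genes next to Tnfrsf25 did not pass the test. Plekhg5, 533 bases away on the same strand, averaged 14.2 CPM in Ctrl against 9.83 CPM in cKO (limma adjusted p = 0.645). Espn, 211 bases away on the opposite strand, averaged 8.73 CPM in Ctrl against 15.5 CPM in cKO (adjusted p = 0.795), with 22.1, 14.3 and 9.96 CPM in the 3 cKO libraries. All Espn values in cKO lay above the Ctrl range of 8.21 to 9.55 CPM, and they spread more than those of Tnfrsf25. Neither gene overlaps the annotated exons of Tnfrsf25. Whether the authors counted by strand is not given in the sources used here.

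The other receptors with a death domain, Tnfrsf1a and Fas, did not pass the test. Tnfrsf1a encodes TNFR1, the widely expressed receptor for soluble TNF, at chr6:125349362-125362484 on the plus strand. Its levels were 98.4, 103.4 and 105.8 CPM in Ctrl and 119.9, 115.4 and 137.4 CPM in cKO. The groups did not overlap, and the log2 difference of 0.27 (95% interval 0.044 to 0.50) had an adjusted p of 0.645, or 0.212 with the block. Fas, the receptor for Fas ligand that triggers apoptosis, lies at chr19:34290659-34327770 on the plus strand. It was listed at 36.6, 31.5 and 34.0 CPM in Ctrl and at 41.9, 37.0 and 49.7 CPM in cKO. The lowest cKO library, at 37.0 CPM, was just above the highest Ctrl library, at 36.6 CPM. The log2 difference was 0.32 (95% interval -0.0034 to 0.63, adjusted p = 0.846), and 0.21 without cKO replicate 3.

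Tnfrsf1b encodes TNFR2, a receptor without a death domain that prefers membrane-bound TNF and is prominent on lymphocytes. It lies on the minus strand at chr4:145213463-145246870. Its CPM was 375.2, 398.0 and 407.2 in Ctrl and 344.2, 361.8 and 385.3 in cKO. The cKO library was the lower one in each of the 3 pairs, although the groups overlapped. The log2 difference of -0.11 had a 95% interval of -0.31 to 0.080 (adjusted p = 0.99998), and it was -0.075 without cKO replicate 1, -0.070 with TMM scaling and -0.060 with DESeq2. Of the receptors for TNF, Tnfrsf1a was thus higher and Tnfrsf1b lower in cKO in each pair, with neither difference past the test.

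Cd28 came closest to the threshold after Tnfrsf25. The gene lies at chr1:60716800-60773359 on the plus strand. The Ctrl libraries stood at 300.5, 296.4 and 300.6 CPM, and the cKO libraries at 366.8, 360.9 and 387.4 CPM. The groups were well separated, and the Ctrl mean of 299.1 ± 2.4 (SD, n = 3) CPM had the smallest relative spread of the 9 genes. The log2 difference was 0.31 with a standard error of 0.072 (95% interval 0.14 to 0.48), and the adjusted p was 0.239 without and 0.0704 with the replicate block. DESeq2 on the recovered reads was the 1 of the 10 alternative settings that called it (adjusted p = 0.00178), and in that fit 554 genes of the table were called in place of 104.

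Cd27 and Tnfrsf18 were among the receptors of high level and had overlapping groups. Cd27, the receptor for CD70 that supports survival of activated T cells, lies at chr6:125232622-125237010 on the minus strand. It was at 216.7, 208.1 and 277.1 CPM in Ctrl and at 247.1, 288.3 and 301.9 CPM in cKO, so Ctrl replicate 3 lay above cKO replicate 1. Its log2 difference was 0.26 (95% interval -0.068 to 0.59, adjusted p = 0.99998). Tnfrsf18 encodes GITR, a costimulator known for its high level on regulatory T cells, at chr4:156026164-156028895 on the plus strand. It was at 261.9, 282.2 and 323.7 CPM in Ctrl and at 306.2, 342.8 and 410.0 CPM in cKO. Replicate 3 was the highest in each group, and Ctrl replicate 3 lay above cKO replicate 1. The log2 difference was 0.28 (95% interval -0.040 to 0.60), with an adjusted p of 0.969 without the block and 0.109 with it, and it was 0.17 without cKO replicate 3. The antisense transcript Gm16008 shares exon positions with Tnfrsf18 and was listed at means of 7.35 CPM in Ctrl and 8.22 CPM in cKO, a small amount beside the 289.2 and 353.0 CPM of Tnfrsf18.

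Tnfrsf9 and Tnfrsf4 were the receptors of lowest level. Tnfrsf9 encodes 4-1BB, a costimulator induced on activated T cells, and lies at chr4:150914562-150946102 on the plus strand. It was at 25.0, 28.7 and 31.7 CPM in Ctrl and at 26.7, 39.1 and 36.5 CPM in cKO, with a log2 difference of 0.24 (95% interval -0.17 to 0.65, adjusted p = 0.99998). The difference was 0.14 without cKO replicate 2, 0.15 without Ctrl replicate 1 and 0.40 without cKO replicate 1. Tnfrsf4 encodes OX40, likewise induced on activated T cells, at chr4:156013843-156016612, 9551 bases from Tnfrsf18 on the same strand. It was at 1.49, 1.07 and 1.59 CPM in Ctrl and at 1.32, 1.93 and 0.896 CPM in cKO, from 33 to 84 reads a library. The groups overlapped fully, and the 95% interval of the log2 difference, -0.999 to 0.97, was the widest of the 9. With the block it was -0.49 to 0.46, and a difference within these intervals could not be told from the spread between libraries.

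**Figure D2:**
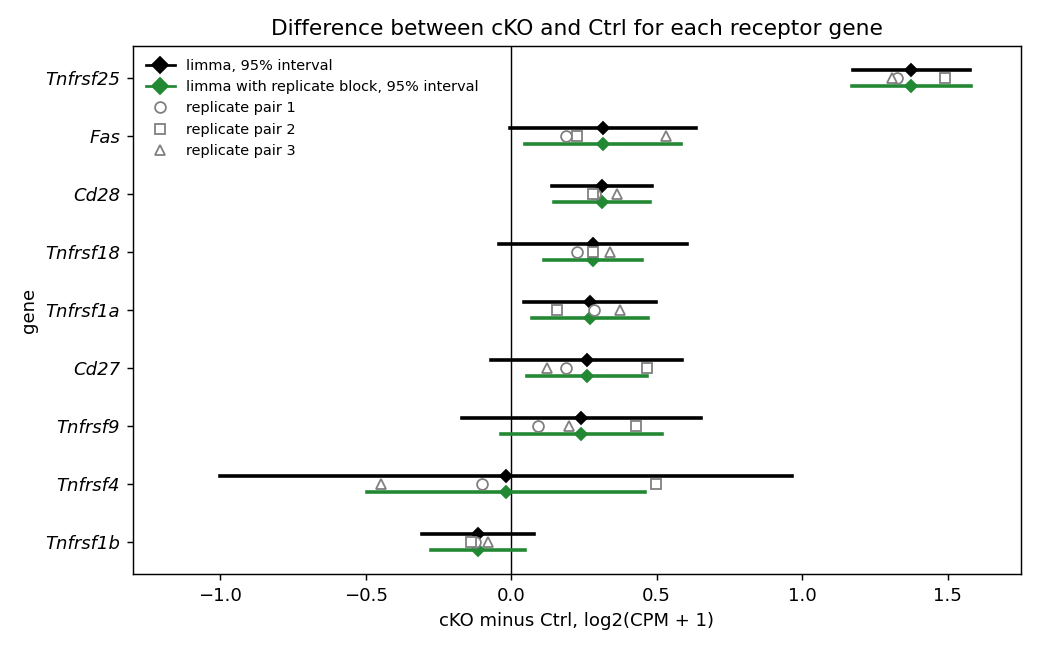
Difference between cKO and Ctrl in log2(CPM + 1) for the 9 receptor genes, ordered by size. Diamonds and lines are limma estimates with 95% intervals, without (black) and with (green) the replicate block, and grey open symbols are the 3 pairs of libraries with the same number. Tnfrsf25 stands alone near 1.38, most others lie between 0.24 and 0.32, and the interval of Tnfrsf4 is the widest.

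Levels can be set side by side between genes only per length, so CPM was divided by the merged exon length of each gene in GENCODE M21 (CPM per kb). On this scale Tnfrsf18 was the highest receptor in Ctrl at 189.8, followed by Tnfrsf1b at 103.1, Cd27 at 100.5, Cd28 at 48.9, Tnfrsf1a at 39.6, Tnfrsf25 at 23.8, Fas at 16.5, Tnfrsf9 at 10.5 and Tnfrsf4 at 1.01 CPM per kb. In this order only Tnfrsf1b and Cd27 had overlapping libraries. The ratio of the highest to the lowest level was 187-fold in Ctrl and 229-fold in cKO. In cKO, Tnfrsf25 stood at 62.3 CPM per kb and Cd28 at 60.7, with overlapping libraries, so that Tnfrsf25 moved from place 6 to place 4. Cd27, at 119.9, then lay above Tnfrsf1b, at 95.3, without overlap. Among the 15571 tested genes that have a length, Tnfrsf25 was at percentile 83.1 in Ctrl and 94.2 in cKO. Tnfrsf18 was at percentile 98.5 and 98.9, and Tnfrsf4 at 25.6 and 26.2.

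**Figure D3:**
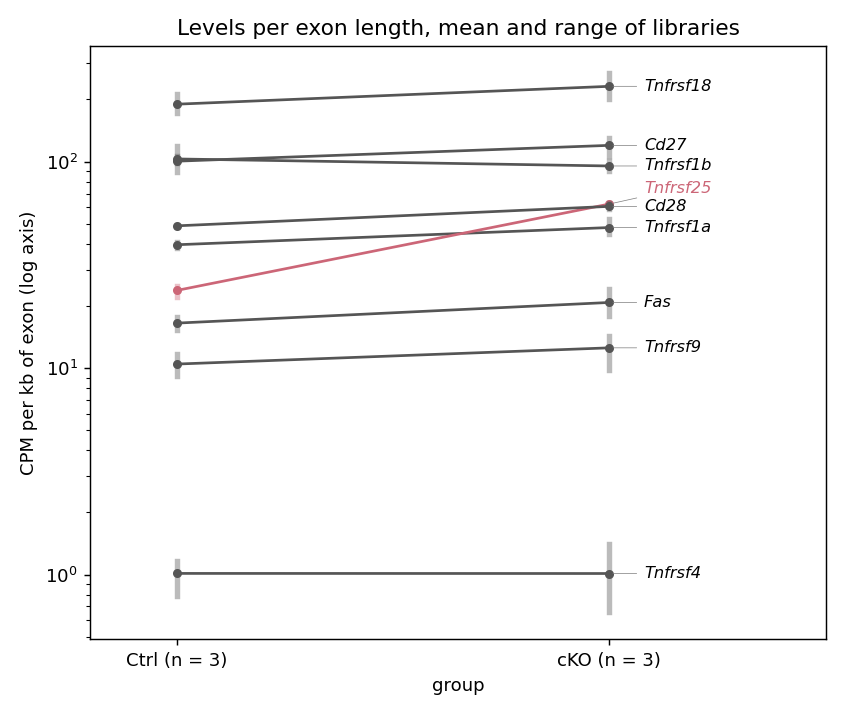
Level of the 9 receptor genes per kb of merged exon, on a log axis, in Ctrl and cKO. Points joined by lines are means of 3 libraries and thick bars run from the lowest to the highest library. The Tnfrsf25 line (red) rises from 23.8 to 62.3 CPM per kb and reaches that of Cd28, while the other lines stay close to level.

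The genes around the receptors were read from 7 lists of ligands, further receptors, adaptors and signalling proteins. Of 109 listed genes, 93 were tested. Limma called 1 (1.075%), against 0.663% of all tested genes, and 5 with the replicate block (5.38%), against 2.87%. The median log2 difference was 0.063, against -0.038 over all tested genes. The lists too were chosen with earlier results of these data known, so these shares are no independent comparison. Of all 15691 tested genes, 40.95% had positive differences and 6.02% had an unadjusted p under 0.05 in limma. The edgeR quasi-likelihood test called 40 of them and DESeq2 called 554. The single listed gene that limma called without the block was Tnfsf14. It encodes LIGHT, a ligand of HVEM and of the lymphotoxin beta receptor. Tnfsf14 was at 44.6, 47.4 and 47.1 CPM in Ctrl and at 87.1, 73.7 and 92.0 CPM in cKO, and it rose by 0.84 on the log2 scale (SE 0.108, adjusted p = 0.0292). The groups lay far apart, yet leaving out any 1 library ended the call (adjusted p from 0.0531 to 0.164), as did edgeR's quasi-likelihood test (adjusted p = 0.0746). Its receptor gene Tnfrsf14 was at 3.03, 5.13 and 4.29 CPM in Ctrl and at 3.54, 3.97 and 1.06 CPM in cKO, and did not pass the test.

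Of the 17 TNF family ligand genes, 11 were tested: 4 had positive and 7 had negative differences, with a median of -0.056 on the log2 scale. With the block, Tnfsf10, which encodes the death ligand TRAIL, was called lower, at 131.5, 131.2 and 120.8 CPM in Ctrl and at 105.1, 92.3 and 85.8 CPM in cKO (log2 difference -0.44, adjusted p = 0.239 without and 0.0351 with the block). That call was lost when TMM scaling was added to the block (adjusted p = 0.0527) and with edgeR's quasi-likelihood test and the block (adjusted p = 0.0580), while DESeq2 made it (adjusted p = 7.31e-06). Some ligand genes of the receptors were picked out after their values were seen, and limma called none of Tnfsf15, Fasl, Tnfsf9 and Tnf in either fit. Tnfsf18, the ligand gene of GITR, was below the filter. The ligand genes Tnfsf4, Cd70 and Cd80 were not found by symbol in the deposited table. Tnfsf15, which encodes TL1A, the ligand of DR3, was at 8.18, 5.04 and 0 CPM in Ctrl and at 6.62, 6.09 and 0 CPM in cKO, with both zeros in the replicate 3 libraries. Fasl was at 275.4, 282.0 and 317.7 CPM in Ctrl and at 201.3, 240.5 and 247.1 CPM in cKO. Its groups did not overlap and its adjusted p was 0.538, or 0.0668 with the block. Tnfsf9, which encodes the ligand of 4-1BB, was at 5.59, 7.05 and 8.80 CPM in Ctrl and at 10.1, 9.99 and 12.4 CPM in cKO (adjusted p = 0.765). Tnf was at 11.2, 15.4 and 19.8 CPM in Ctrl and at 11.2, 13.6 and 10.4 CPM in cKO (adjusted p = 0.99998), with overlapping groups.

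Of the 20 further receptors of the family, 13 were tested, 7 with positive and 6 with negative differences and a median of 0.0004. Without the block limma called 0, with 1 at an unadjusted p under 0.05, and edgeR and DESeq2 called 0 as well. With the block, Cd40, the receptor for CD40 ligand known from B cells and antigen-presenting cells, was called lower. Cd40 was at 3.09, 2.40 and 3.25 CPM in Ctrl and at 0.763, 0.381 and 0.220 CPM in cKO (log2 difference -1.44, adjusted p = 0.421 without and 0.00355 with the block). At these low levels the size depended on the scale: the log2 difference was -0.54 with a pseudocount of 5 and -1.87 with 0.5, and -2.66 with edgeR's quasi-likelihood test. The cKO mean was 15.6% of the Ctrl mean, and DESeq2 gave Cd40 no adjusted p. The B cell markers Cd79a, Cd79b and Ms4a1 summed to 4.32 to 11.4 CPM in Ctrl and to 3.14 to 11.7 CPM in cKO, and their part in the Cd40 value was not tested.

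Calls in the lists of the intracellular part of the pathway are to be read beside those over all 15691 tested genes. There limma called 0.663% without and 2.87% with the block, edgeR called 40 genes and DESeq2 called 554. Among 16 tested genes of TRAF adaptors and ubiquitin regulators limma called 0 in either fit (10 positive, 6 negative, median 0.064), with 2 at an unadjusted p under 0.05, while edgeR called 0 and DESeq2 called 2. Traf1, an adaptor that binds several of these receptors, had the largest difference of that list, with 123.5, 129.5 and 145.9 CPM in Ctrl and 177.0, 168.4 and 173.7 CPM in cKO (log2 difference 0.38, adjusted p = 0.254, or 0.0643 with the block). It was picked out after its values were seen. Of the 10 genes of the death arm, such as those for FADD and caspase-8, limma called 0 (6 positive, 4 negative, median 0.086), with 0 at an unadjusted p under 0.05 and 0 called by edgeR and by DESeq2. Of 16 genes of the NF-kB arm 12 were positive and 4 negative (median 0.057). Limma called 0 without the block (3 at an unadjusted p under 0.05), edgeR called 0 and DESeq2 called 1. The DESeq2 call, named here for that reason alone, was Ikbkb, with a cKO mean of 80.0% of the Ctrl mean. With the block, and with replicates 1 and 2 only, Nfkbia was called higher, while DESeq2 did not call it (adjusted p = 0.194). Nfkbia encodes the inhibitor IkB-alpha, itself an NF-kB target, and was at 197.2, 210.9 and 291.5 CPM in Ctrl and at 287.6, 309.1 and 369.4 CPM in cKO. These groups overlapped by a small margin, and the log2 difference of 0.48 had an adjusted p of 0.659 without and 0.0156 with the block.

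Of the relatives and ligands of CD28, 8 of 9 genes were tested, with 6 positive and 2 negative differences and a median of 0.23. Limma called 0 without the block (1 at an unadjusted p under 0.05), edgeR called 0 and DESeq2 called 1. Btla, an inhibitory relative that binds HVEM, was at 63.6, 59.2 and 59.2 CPM in Ctrl and at 110.3, 88.2 and 84.1 CPM in cKO. The groups did not overlap, and the log2 difference of 0.62 had an adjusted p of 0.132 in limma, or 0.0114 once the block was added. Btla was also called in fits that had no block, with DESeq2 (adjusted p = 1.79e-08) and with replicates 1 and 2 only (adjusted p = 0.0255). Of 19 tested genes of CD28 signalling 13 were positive and 6 negative (median 0.070). Limma called 0 of them in either fit, with 0 at an unadjusted p under 0.05, edgeR called 0 and DESeq2 called 1. The plot of the lists shows the single genes beside these medians.

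**Figure D4:**
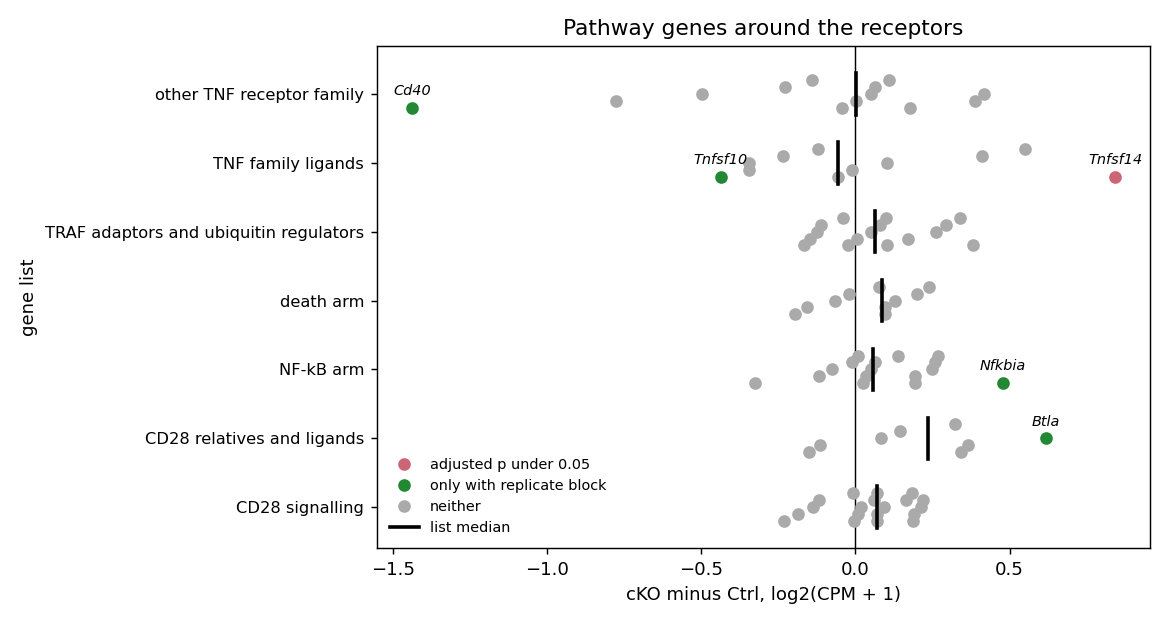
Difference between cKO and Ctrl in log2(CPM + 1) for the 93 tested genes of the 7 lists, 1 point a gene, with the list median as a black bar. Red marks a gene with an adjusted p under 0.05 in limma and green a gene that limma called only with the replicate block. Tnfsf14 at 0.84 is the single red point, Cd40 lies lowest at -1.44, and most genes lie near 0.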

How the data were processed

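RNA-seq of 3 Ctrl and 3 cKO libraries was used. Reads were 75 bases long, and the submitters' processing notes name Trimmomatic 0.33, STAR 2.5.2, HTSeq 0.6.1, edgeR and the build mm10. The deposited table holds CPM per library, computed by the authors, in columns named WT and KO that were taken as Ctrl and cKO. The deposited table further gives, per the file headers, the authors' log2 fold change and mean log2 CPM, their likelihood-ratio score, and their p-value and adjusted p-value. Every per-sample column was mapped. A deposited gene width equalled the transcript lengths summed over all isoforms for 8 of the 9 genes and was not used; merged exon lengths of GENCODE M21 replaced it. For 8 of the 9 genes the start and end were the same in GENCODE M21.

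The deposited CPM values were whole multiples of 1 read (100% of values within 0.05 of a whole read in each library). The main test was limma 3.58.1 on log2(CPM + 1) with a trend and robust moderation, by group alone, over the 15691 genes whose mean reached 1 CPM, with Benjamini-Hochberg adjustment at 0.05; fold changes are on that scale, which understates low genes. On the recovered reads edgeR 4.0.16 (quasi-likelihood) called 40 genes and, with the replicate block, 469; DESeq2 1.42.0 was also run. Replicate numbers come from the sample titles. The deviations of same-numbered libraries from their group means correlated at 0.855, 0.688 and 0.924, all over the 0.1 used to take numbers as pairs. Ctrl replicate 2 correlated slightly better with cKO replicate 1 (0.718) than with cKO replicate 2. Ctrl replicate 1 also correlated with cKO replicate 2 (0.58), so passing 0.1 does not tell pair 1 from pair 2. Replicates within a group differed by more than sampling noise (chi-square per degree of freedom from 18.7 to 190.8). The fits were tested on simulated data. Promoter windows are from RefSeq. The members and the gene lists were chosen with earlier results of these data known; genes named from the lists are up to 4 per list that passed without or with the block, by smallest p, unless said otherwise. Intervals cover the spread of 3 libraries. Figures were drawn with matplotlib 3.10.9.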

Additional observations from a re-analysis of the deposited data

How the results depend on the processing

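Tnfrsf25 kept its direction and its call under all 16 alternatives run (10 settings and 6 fits without 1 library), with adjusted p from 8.81e-71 to 0.0109 in the settings and from 0.00535 to 0.0229 without 1 library. The count of called receptor genes was 1 in all of them except DESeq2, where it was 2. The 104 genes called in the whole table became 451 with the replicate block, 513 with the replicate block and TMM scaling, 40 with edgeR's quasi-likelihood test, 469 with that test and the replicate block, 554 with DESeq2 (282 higher and 272 lower, 3955 genes without an adjusted p) and 291 with replicates 1 and 2 only; without 1 library they were 14 to 85. The listed pathway genes called, 1 in limma, became 5 with the replicate block, 5 with the block and TMM, 0 with edgeR's quasi-likelihood test, 5 with that test and the block, 7 with DESeq2, 5 with replicates 1 and 2 only and 0 to 0 without 1 library; the block with TMM, and edgeR with the block, called Traf1 in place of Tnfsf10. Pairing changed the call of no receptor gene. The log2 difference of Tnfrsf4 (-0.017) changed sign to 0.0056 with TMM, 0.0056 with the block and TMM, 0.034 with edgeR's quasi-likelihood test, 0.026 with DESeq2 and 0.20 with replicates 1 and 2 only, and ran from -0.18 to 0.14 without 1 library. Tnfrsf4 rested on at most 84 reads a library. The median of all tested genes (-0.038) ran from -0.15 without cKO replicate 1 (30.1% higher) to 0.076 without cKO replicate 3 (60.4% higher); TMM moved it by less than 0.1.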
